A study of Homo sapiens with 6 samples.

Results

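Antisense RNAs that carry the name of the gene on the opposite DNA strand were followed in NB4 cells treated with arsenic trioxide for 6 h and in control NB4 cells. A pair consisted of a gene whose symbol ends in -AS and a digit and the gene whose symbol stands before that ending, here called the sense gene. Of 23858 genes in the deposited table, 589 had such a name, and for 562 of these the sense gene was also listed. Both genes had to reach a mean of 1 RPKM (reads scaled by exon length and by the reads of the library) over the 6 libraries, which left 296 pairs. These held 285 different sense genes, because 11 sense genes had more than 1 antisense partner. A further 265 pairs missed the threshold, 27 antisense names had no listed sense gene, and 1 name was left out by the rule. The members were thus chosen by name and selected on the mean RPKM of both genes over all 6 libraries. In 34 pairs a gene passed this threshold through 1 group only, 17 antisense genes through arsenic trioxide and 8 through control, so a difference between the groups helped to decide whether these pairs are members. Just inside it lay GAS8-AS1 with GAS8, at means of 2.89 and 1.01 RPKM, and C1RL-AS1 with C1RL, at 1.76 and 1.01 RPKM. Just outside it lay CRTC3-AS1 with CRTC3, at 0.983 and 6.51 RPKM, and MMP24-AS1 with MMP24, at 1.37 and 0.990 RPKM.

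Antisense RNAs are transcribed from the strand opposite to a gene, often as long noncoding RNAs that stay at a low level. Many start at the same CpG-rich promoter as their sense gene and run in the other direction, while others start inside or beyond the gene and cross its exons or introns. Single antisense RNAs are known to raise or lower their sense gene in cis, and for most no role has been established. NB4 cells derive from a human acute promyelocytic leukaemia in which PML is fused to RARA. Arsenic trioxide, a drug for this leukaemia, binds the PML part of the fusion protein and leads to its degradation.

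Total RNA depleted of ribosomal RNA was sequenced in 3 arsenic trioxide and 3 control libraries of the same cell line. The read totals behind the RPKM, inferred from RPKM and exon lengths, were 21185966 to 22300256 in arsenic trioxide libraries and 19361333 to 22609019 in control libraries. No source used here gives the dose or says that the libraries came from separate cultures, so the p-values cover the spread between these libraries alone, which may be technical. The first principal component of all tested genes separated the groups, and the second set arsenic trioxide replicate 3 and control replicate 1 apart from the other 4. Of 7 promyelocyte markers 6 were listed, with a sum of 688.7 to 1041 RPKM in arsenic trioxide libraries and 1039 to 1435 RPKM in control libraries. Erythroid and fibroblast markers were not listed. The 1 listed T cell marker and 1 listed platelet marker overlapped between groups, and the 2 listed of 3 B cell markers summed to 5.98 to 6.26 RPKM in arsenic trioxide libraries and 3.05 to 3.26 RPKM in control libraries. In RNA from many cells, fewer cells of a type and less RNA per cell cannot be told apart.

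The library kit does not mark strand, so a read from bases that both genes of a pair transcribe cannot be told apart by strand, and no source used here says how such reads were counted. In GENCODE 29 (GRCh38), 169 pairs had exonic bases in common, with a median of 11.1% and at most 82.3% of the antisense exon length. In 86 pairs the genes overlapped without a common exonic base. There, reads from an intron of 1 gene can still fall on exons of the other. In 35 pairs the genes lay apart head to head, with the 5' ends towards each other. Of the remaining 6 pairs, 3 had both genes on 1 strand (FAS-AS1, MYCBP2-AS2 and TRMT2B-AS1), 1 was tail to tail and 2 were not in the annotation. The 5' ends lay within 1000 bases of each other on opposite strands in 81 pairs. Most antisense members (234 of 296) were annotated as antisense RNA, and 2 of them, NCBP2-AS2 and TOPORS-AS1, as protein coding.

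For 4 pairs that the results turn on, 30 bases of the exonic stretch common to both genes are printed, from the GENCODE 29 transcripts, so that the ambiguity can be seen. Each antisense line is the reverse complement of the sense line below it, and all bases are in capitals because all lie in exons of both genes. The stretches are chr4:138169047-138169076 for SLC7A11, chr9:2643244-2643273 for VLDLR, chr6:135195929-135195958 for MYB and chr16:30923088-30923117 for FBXL19. In total the exons of SLC7A11-AS1 and SLC7A11 had 865 bases in common, those of VLDLR-AS1 and VLDLR 738, those of MYB-AS1 and MYB 103, and those of FBXL19-AS1 and FBXL19 98.
SLC7A11-AS1 (strand +): TACTATATTAGTTATTTTAAACAGTATTCA
SLC7A11 (strand -): TGAATACTGTTTAAAATAACTAATATAGTA
VLDLR-AS1 (strand -): AGTCCAGCTCATCACTGCCATCGCTGCAGT
VLDLR (strand +): ACTGCAGCGATGGCAGTGATGAGCTGGACT
MYB-AS1 (strand -): TAACATTATCCAGAATGGTGCCCTGGTGGA
MYB (strand +): TCCACCAGGGCACCATTCTGGATAATGTTA
FBXL19-AS1 (strand -): CTGCCATTTCTACTCGTCAGGAACAATGGA
FBXL19 (strand +): TCCATTGTTCCTGACGAGTAGAAATGGCAG

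For the 3 pairs whose change in antisense to sense ratio was called whichever single library was left out (given further on), the genes start close to each other on opposite strands, and the RefSeq promoter window that holds this start region is printed (GRCh38.p14, 250 bases before to 50 after the RefSeq start). The first window belongs to MAFG, whose GENCODE 29 start lies 115 bases from that of MAFG-AS1, and the second to NCBP2, whose start lies 26 bases from that of NCBP2-AS2. The third belongs to FBXL19-AS1, whose start lies 214 bases inside the transcribed region of FBXL19, so that the 5' ends of both genes overlap. Capitals mark the bases of the window that lie between the GENCODE 29 starts of both genes. The MAFG and NCBP2 windows hold both starts, while the FBXL19-AS1 window holds only that of FBXL19-AS1, and its capitals are the 50 bases from there to the end of the window.
MAFG (chr17:81927686-81927985, strand -): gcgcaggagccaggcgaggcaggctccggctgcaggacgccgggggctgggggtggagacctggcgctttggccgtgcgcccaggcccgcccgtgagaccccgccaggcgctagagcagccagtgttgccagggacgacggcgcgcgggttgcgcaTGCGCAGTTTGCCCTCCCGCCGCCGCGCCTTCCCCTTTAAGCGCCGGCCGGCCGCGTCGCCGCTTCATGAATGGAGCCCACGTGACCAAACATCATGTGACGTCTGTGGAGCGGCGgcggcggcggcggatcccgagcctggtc
NCBP2 (chr3:196942479-196942778, strand -): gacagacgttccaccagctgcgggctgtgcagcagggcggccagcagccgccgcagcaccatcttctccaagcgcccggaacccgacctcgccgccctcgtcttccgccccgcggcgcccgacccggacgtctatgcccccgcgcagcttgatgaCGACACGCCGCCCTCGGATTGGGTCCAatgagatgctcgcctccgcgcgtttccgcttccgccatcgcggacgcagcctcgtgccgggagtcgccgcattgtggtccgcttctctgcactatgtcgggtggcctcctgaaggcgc
FBXL19-AS1 (chr16:30923220-30923519, strand -): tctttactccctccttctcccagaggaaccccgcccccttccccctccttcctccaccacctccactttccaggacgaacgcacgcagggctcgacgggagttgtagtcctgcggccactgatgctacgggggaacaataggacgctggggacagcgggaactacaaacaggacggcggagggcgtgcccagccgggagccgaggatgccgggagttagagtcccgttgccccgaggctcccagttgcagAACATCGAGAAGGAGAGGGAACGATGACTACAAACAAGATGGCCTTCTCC

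RefSeq promoter windows matched by symbol for 188 antisense and 238 sense genes of the pairs. The letters CACGTG, the E-box bound by MYC and related factors, stood in 8.51% of the antisense windows and 11.3% of the sense windows, against 7.205% of all 34796 windows in the table, on either strand and with no regard to overlap between motifs. The MAFG window printed above is among them, with CACGTG between the starts of both genes. TGACNNNGC, the core of the antioxidant response element, stood in 16.0% of antisense windows and 14.7% of sense windows, against 13.3% of all. TGATGCAAT, an element bound by ATF4 with C/EBP factors, stood in 1 antisense and 1 sense window, against 0.239% of all windows.

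Antisense genes were mostly weaker than their sense genes. Over the 6 libraries their mean levels ran from 1.03 to 56.6 RPKM with a median of 2.79 RPKM, against a median of 11.1 RPKM for sense genes. The median antisense level was 25.8% of the sense level per length. In 38 pairs the antisense gene stood above its sense gene, led by PROSER2-AS1 at 907% of PROSER2, and at the other end ENO1-AS1 stood at 0.535% of ENO1, the gene of the glycolytic enzyme enolase. A median antisense gene rested on 88.6 reads per library and a median sense gene on 1383, and 19 antisense genes averaged fewer than 20 reads. The median standard error of a log2 change was 0.16 for antisense genes and 0.10 for sense genes. A value of 3 reads per kilobase corresponds to 0.135 to 0.142 RPKM in arsenic trioxide libraries and 0.133 to 0.155 RPKM in control libraries.

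**Figure D1:**
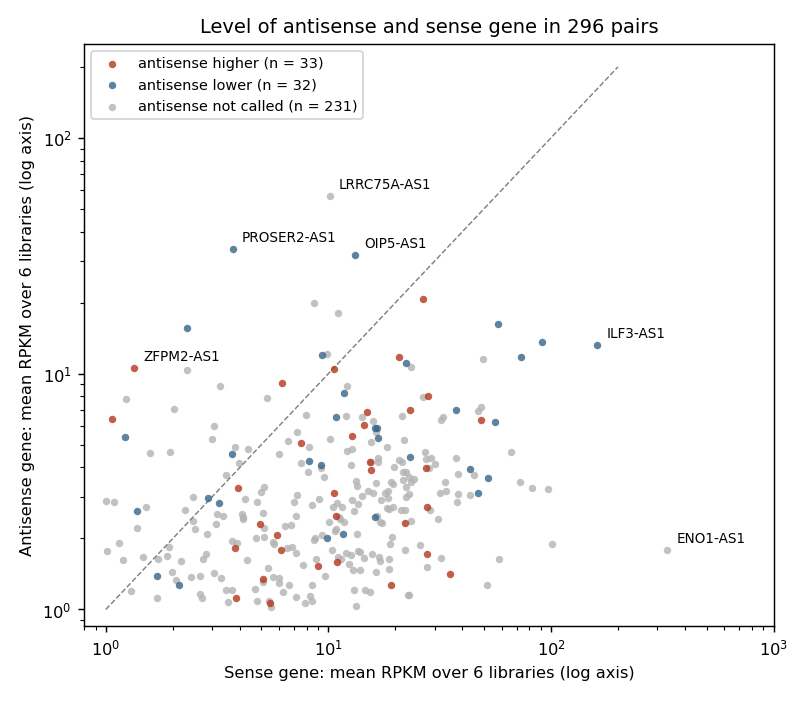
Mean level over the 6 libraries of the sense gene (x axis) and the antisense gene (y axis) of each of 296 pairs, in RPKM on log axes, with antisense genes called higher or lower after arsenic trioxide in colour and the dashed line at equal levels. Most points lie below the line, 38 lie above it, and called antisense genes occur over the whole range of levels.

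After arsenic trioxide, 33 of the 296 antisense genes were higher and 32 lower. This was tested on log2(RPKM + 1) with limma over all 16803 genes that average 1 RPKM or more, and a gene was called at a Benjamini-Hochberg adjusted p under 0.05. The 65 called antisense genes are 22.0% of the pairs, while 25.4% of all tested genes were called, 12.0% higher and 13.4% lower. Of the sense genes, 59 were called higher and 48 lower over the pairs, and 101 of 285 when each was counted once. Over the pairs, 38 sense genes were called higher without arsenic trioxide replicate 1 or control replicate 3, and 28 were called lower without control replicate 2 and 27 without control replicate 3. The median log2 change was 0.03 for antisense genes and -0.0033 for all tested genes, and a called antisense gene changed by a median of 0.67 in size, against 0.56 for all called genes. The median standard error was 0.16 for antisense genes and 0.13 for all tested genes. Of the 65 called, 15 were in pairs that passed the threshold through 1 group only. The part of either in the larger median size was not tested. The groups did not overlap in 131 antisense genes (44.3%), against 44.6% of all tested genes. By the rule for members, 34 pairs passed the threshold through 1 group only, and with both genes at 1 RPKM or more in each group 22 antisense genes of 262 were called higher and 28 lower. Over these 262 pairs, 45 sense genes were called higher and 43 lower. Without arsenic trioxide replicate 2 or without control replicate 3, 21 antisense genes were called higher, and without control replicate 2 or control replicate 3, 20 were called lower. Of the 65 calls, 36 were kept whichever single library was left out, 19 higher and 17 lower.

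Where both genes of a pair were called, they mostly moved the same way, but more pairs had 1 gene called alone. Of the 65 called antisense genes, 40 had a sense gene called in the same direction, 21 higher and 19 lower, 24 had a sense gene that was not called, and 1, FBXL19-AS1, had a sense gene called the other way. In 66 pairs the sense gene alone was called, and in 165 neither was. A gene called alone does not show that the genes of a pair changed differently. The antisense to sense ratio, given further on, was called in 7 of the 24 pairs with the antisense gene alone and 12 of the 66 others. The median standard error was 0.16 for antisense and 0.10 for sense genes. The counts of gene calls by pair were not made for other opposite-strand pairs. Across the 296 pairs the log2 changes correlated with a Pearson r of 0.69 and a Spearman rho of 0.57, and 69.3% had the same sign. These pairs include the 34 that passed the threshold through 1 group only, and the values without them were not computed. Among 5421 other pairs of listed genes on opposite strands that overlap or lie within 1000 bases, r was 0.52, rho 0.50 and the same-sign share 68.05%. Both genes of a pair come from the same libraries and can share reads, and the order of the geometries depended on the measure. In the pairs with common exonic bases r was 0.70, rho 0.48 and the same-sign share 65.1%. In those that overlap without any, r was 0.77, rho 0.70 and the same-sign share 74.4%, and in those that lie apart head to head r was 0.50, rho 0.64 and the same-sign share 77.1%. With the 5' ends more than 1000 bases apart r was 0.76, rho 0.64 and the same-sign share 72.9%, and with them within 1000 bases on opposite strands r was 0.50, rho 0.40 and the share 60.5%. The part of shared reads in these values, from exons or introns, was not tested.

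**Figure D2:**
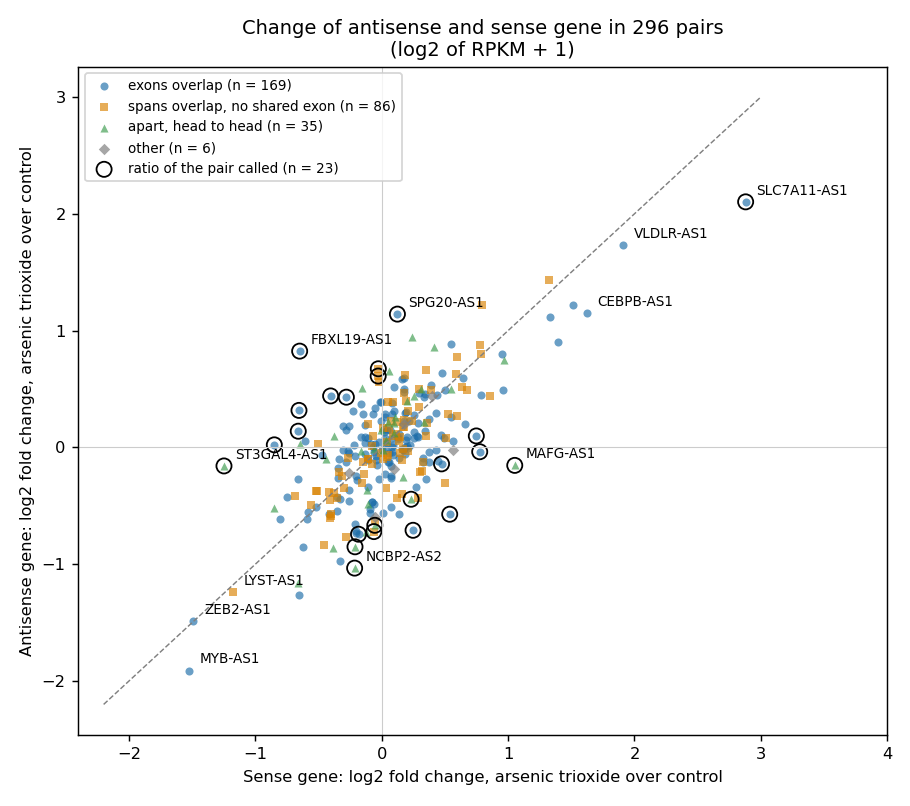
Log2 fold change (arsenic trioxide over control, on log2 of RPKM + 1) of the sense gene (x axis) and the antisense gene (y axis) in each of 296 pairs, coloured by how the genes lie to each other, with the dashed line at equal change and a ring around the 23 pairs whose ratio was called. Most points lie near the line, SLC7A11-AS1 and VLDLR-AS1 at its upper end and MYB-AS1 and ZEB2-AS1 at its lower end, and FBXL19-AS1 is the ringed point in the upper left area with both genes called.

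The 8 largest antisense rises were those of SLC7A11-AS1, VLDLR-AS1, NCOA7-AS1, CLIP1-AS1, ZFPM2-AS1, CEBPB-AS1, SPG20-AS1 and RASSF8-AS1. All of these pairs except SPG20 passed the threshold of 1 RPKM only through the arsenic trioxide group, in ZFPM2 by the sense gene and in the others by the antisense gene, so these genes had to differ to be members and their values are a description. The largest rise was that of SLC7A11-AS1, on the + strand at chr4:138057464-138178177, against SLC7A11, which encodes the cystine importer xCT that feeds glutathione synthesis. SLC7A11-AS1 had 7.61, 7.46 and 6.12 RPKM in arsenic trioxide libraries, against 0.836, 0.713 and 1.08 RPKM in control libraries. SLC7A11 itself had 57.2, 51.4 and 38.6 RPKM in arsenic trioxide libraries, against 5.00, 5.41 and 6.86 RPKM in control libraries. The groups were far apart for both genes, by 8.05-fold for the antisense and 8.52-fold for the sense gene (ratio of mean RPKM). The log2 change was 2.102 ± 0.14 (SE, adjusted p = 0.000366) for SLC7A11-AS1 and 2.88 ± 0.16 (adjusted p = 0.000257) for SLC7A11.

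VLDLR encodes a receptor for lipoproteins and for reelin. VLDLR-AS1, on the - strand at chr9:2421597-2643359, had 3.15, 2.92 and 1.80 RPKM in arsenic trioxide libraries, against 0.127, 0.0441 and 0.0472 RPKM in control libraries, where it rested on 12, 4 and 5 reads. VLDLR had 10.7, 8.92 and 6.24 RPKM in arsenic trioxide libraries, against 1.69, 1.61 and 1.26 RPKM in control libraries. Both genes were higher in every arsenic trioxide library than in any control library, VLDLR-AS1 by 36.1-fold and VLDLR by 5.68-fold (ratio of mean RPKM). On the log2(RPKM + 1) scale, which understates the change of low genes, VLDLR-AS1 rose by 1.74 ± 0.18 (SE, adjusted p = 0.00152) and VLDLR by 1.91 ± 0.19 (adjusted p = 0.00128).

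CEBPB encodes C/EBP beta, a leucine zipper factor of myeloid cells and of stress responses, and CEBPB-AS1 starts 764 bases from it on the other strand. CEBPB-AS1 had 1.86, 2.21 and 1.44 RPKM in arsenic trioxide libraries, against 0.131, 0.117 and 0.635 RPKM in control libraries. CEBPB had 10.2, 7.70 and 8.37 RPKM in arsenic trioxide libraries, against 2.13, 2.11 and 2.22 RPKM in control libraries. The groups did not overlap for either gene, with control replicate 3 the highest control for CEBPB-AS1. The log2 change was 1.15 ± 0.20 (SE, adjusted p = 0.00832) for CEBPB-AS1 and 1.62 ± 0.12 (adjusted p = 0.000542) for CEBPB.

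NCOA7 encodes a nuclear receptor coactivator with a TLDc domain. NCOA7-AS1 lies within it without a common exonic base, and had 3.49, 2.64 and 2.997 RPKM in arsenic trioxide libraries, against 0.198, 1.03 and 0.353 RPKM in control libraries, where it rested on 2, 10 and 4 reads. NCOA7 had 10.0, 9.50 and 8.10 RPKM in arsenic trioxide libraries, against 2.91, 3.37 and 2.95 RPKM in control libraries. Both genes were above all controls in every arsenic trioxide library, with control replicate 2 the highest control of both. The log2 change was 1.44 ± 0.22 (SE, adjusted p = 0.0051) for NCOA7-AS1 and 1.32 ± 0.11 (adjusted p = 0.000791) for NCOA7.

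CLIP1 encodes the microtubule plus-end protein CLIP-170, RASSF8 a protein with a Ras association domain, and ZFPM2 the GATA cofactor FOG2. CLIP1-AS1 had 2.48, 2.40 and 2.74 RPKM in arsenic trioxide libraries, against 0.684, 0.343 and 0.562 RPKM in control libraries. RASSF8-AS1 had 2.46, 2.64 and 3.51 RPKM in arsenic trioxide libraries, against 1.03, 0.714 and 0.589 RPKM in control libraries. For both the lowest arsenic trioxide library stood more than 2-fold above the highest control library. CLIP1-AS1 rose by 1.22 ± 0.14 on the log2 scale (SE, adjusted p = 0.00207) with CLIP1 at 1.51 ± 0.10 (adjusted p = 0.000368), and RASSF8-AS1 by 1.12 ± 0.17 (adjusted p = 0.00457) with RASSF8 at 1.33 ± 0.12 (adjusted p = 0.000981). ZFPM2-AS1 stood above its sense gene per length, with 16.1, 13.9 and 15.6 RPKM in arsenic trioxide libraries, against 5.97, 5.41 and 6.48 RPKM in control libraries. ZFPM2 had 1.99, 1.92 and 1.97 RPKM in arsenic trioxide libraries, against 0.898, 0.578 and 0.666 RPKM in control libraries. Both rose without overlap, ZFPM2-AS1 by 1.22 ± 0.09 (SE, adjusted p = 0.000591) and ZFPM2 by 0.79 ± 0.13 (adjusted p = 0.00694).

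SPG20 encodes spartin, a protein of endosomes and lipid droplets, and here the antisense gene was called without its sense gene. SPG20-AS1 had 10.0, 8.18 and 16.5 RPKM in arsenic trioxide libraries, against 5.65, 3.86 and 4.11 RPKM in control libraries. SPG20 had 29.9, 29.3 and 28.8 RPKM in arsenic trioxide libraries, against 26.5, 26.8 and 27.2 RPKM in control libraries. The groups did not overlap for either gene, but the spread of SPG20-AS1 was wide, with arsenic trioxide replicate 3 the highest library. SPG20-AS1 changed by 1.14 ± 0.25 on the log2 scale (SE, adjusted p = 0.0166), but leaving out control replicate 2 (adjusted p = 0.0541) or control replicate 3 (0.0522) ended the call. SPG20 changed by 0.12 ± 0.05 (adjusted p = 0.112).

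In the pairs with the 8 largest antisense falls the sense gene was also called lower, and 2 of these pairs, ZEB2 by its antisense gene and GSN by its sense gene, passed the threshold only through the control group. A group difference helped to make these 2 pairs members, so their values are a description. MYB encodes the transcription factor that keeps blood progenitors proliferating, and MYB-AS1 lies within it on the - strand, at chr6:135195083-135195995. MYB-AS1 had 3.30, 3.57 and 6.59 RPKM in arsenic trioxide libraries, against 19.1, 21.7 and 16.4 RPKM in control libraries. MYB had 35.0, 40.8 and 35.9 RPKM in arsenic trioxide libraries, against 121, 107 and 100 RPKM in control libraries. No arsenic trioxide library reached a control for either gene, and MYB-AS1 was highest among the treated in replicate 3. MYB-AS1 fell by 1.91 on the log2 scale (SE 0.22, adjusted p = 0.00212), a 4.25-fold lower mean RPKM, and MYB fell by 1.53 (SE 0.09, adjusted p = 0.000259), a 2.94-fold lower mean.

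ZEB2 encodes a zinc finger repressor with a role in blood progenitors. ZEB2-AS1 had 0.669, 0.493 and 0.611 RPKM in arsenic trioxide libraries, against 3.03, 2.58 and 5.13 RPKM in control libraries. ZEB2 had 5.30, 5.69 and 5.87 RPKM in arsenic trioxide libraries, against 19.0, 16.4 and 17.5 RPKM in control libraries. The groups lay apart for both genes, with control replicate 3 the highest for the antisense. ZEB2-AS1 and ZEB2 each had a log2 change of -1.49 (SE 0.21, adjusted p = 0.00422 for the antisense and SE 0.08, adjusted p = 0.000257 for the sense gene). This equality holds on log2(RPKM + 1), which understates the change of low genes. The ratio was called at -0.89 with limma-voom on recovered reads (adjusted p = 0.0477) and at 0.48 with a pseudocount of 5 (adjusted p = 0.0315). With 41.4% of its exon bases in common with ZEB2, ZEB2-AS1 is the member of the 8 falls with the largest common share.

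LYST encodes a regulator of lysosome size that is mutated in Chediak-Higashi syndrome, a disorder of granule-bearing white blood cells. LYST-AS1, which has no exonic base in common with LYST, had 3.53, 3.17 and 2.53 RPKM in arsenic trioxide libraries, against 6.27, 9.52 and 10.4 RPKM in control libraries. LYST had 9.41, 10.9 and 8.17 RPKM in arsenic trioxide libraries, against 18.7, 25.8 and 24.1 RPKM in control libraries. Both genes were lower in every arsenic trioxide library, with control replicate 1 the lowest control of both. The log2 change was -1.24 ± 0.19 (SE, adjusted p = 0.00531) for LYST-AS1 and -1.18 ± 0.14 (adjusted p = 0.0024) for LYST.

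GSN encodes gelsolin, which severs actin filaments. GSN-AS1 had 1.14, 1.16 and 1.10 RPKM in arsenic trioxide libraries, against 3.73, 4.38 and 4.25 RPKM in control libraries. GSN was weaker than its antisense gene, with 0.749, 1.10 and 0.710 RPKM in arsenic trioxide libraries, against 1.70, 2.21 and 1.81 RPKM in control libraries. The arsenic trioxide libraries lay below all controls for both genes. GSN-AS1 fell by 1.26 on the log2 scale (SE 0.12, adjusted p = 0.00101) and GSN by 0.65 (SE 0.15, adjusted p = 0.0202). The call of GSN was lost without arsenic trioxide replicate 1 (adjusted p = 0.0656), arsenic trioxide replicate 3 (0.0547), control replicate 2 (0.065) or control replicate 3 (0.0548).

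FARSA encodes the catalytic subunit of cytosolic phenylalanyl-tRNA synthetase, and MBNL1 a regulator of alternative splicing. FARSA-AS1 had 8.001, 9.01 and 11.5 RPKM in arsenic trioxide libraries, against 18.1, 19.7 and 15.8 RPKM in control libraries. MBNL1-AS1 had 2.56, 2.12 and 2.22 RPKM in arsenic trioxide libraries, against 7.22, 4.03 and 5.52 RPKM in control libraries. For both, all arsenic trioxide libraries lay below all controls. FARSA-AS1 changed by -0.85 ± 0.14 on the log2 scale (SE, adjusted p = 0.0062) and FARSA by -0.63 ± 0.09 (adjusted p = 0.00456). MBNL1-AS1 changed by -0.97 ± 0.19 (SE, adjusted p = 0.0115) and MBNL1 by -0.33 ± 0.06 (adjusted p = 0.00748). Without control replicate 1 and arsenic trioxide replicate 3, the libraries that stand apart, the adjusted p of MBNL1-AS1 was 0.0544. The other antisense falls among the 8 belong to PAXIP1 and NCBP2, which are described with the sense genes that have several antisense partners.

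**Figure D3:**
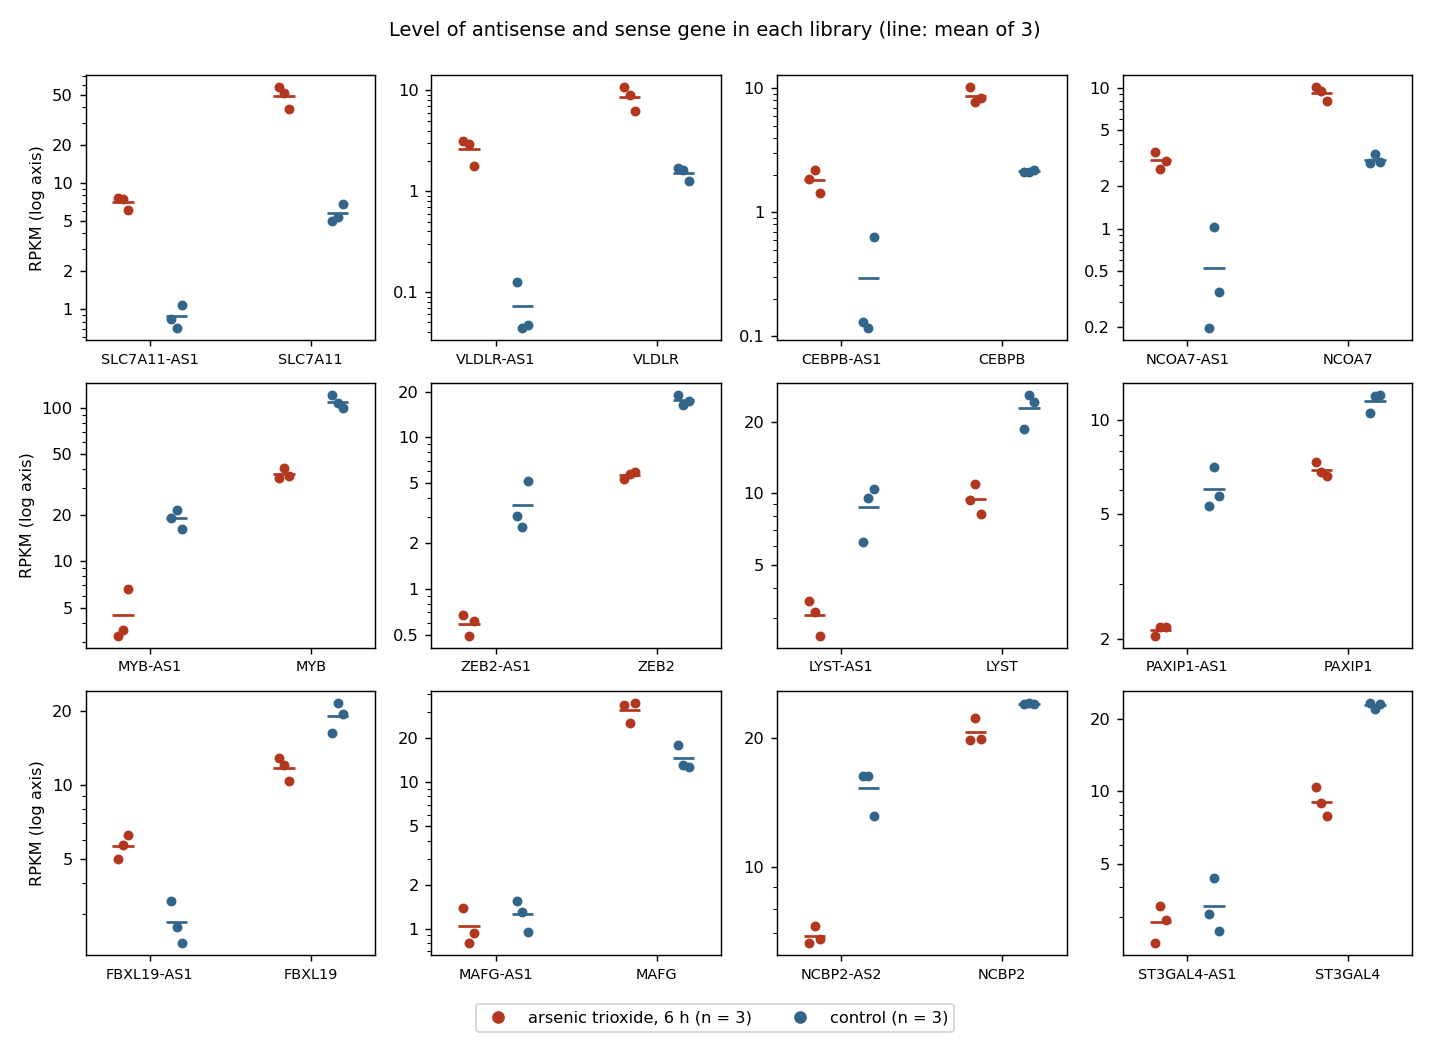
RPKM (log axis) of antisense gene (left) and sense gene (right) in each library for 12 pairs, arsenic trioxide in red and left of control in blue, 3 libraries each, the line marking their mean. Top row: both genes higher after arsenic trioxide. Middle row: both lower. Bottom row: pairs whose ratio was called, among them FBXL19-AS1 at 5.02 to 6.27 RPKM above its controls while FBXL19 lies below its own.

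The ratio of antisense to sense level was then tested for each pair, as the difference of log2(RPKM + 1) within a library, in 1 fit with the other opposite-strand pairs. It was called in 23 of 296 pairs (7.77%), 10 higher and 13 lower, against 8.66% of all 5717 pairs fitted and 8.71% of the 5421 others. With both genes at 1 RPKM or more in each group, it was called in 19 of 262 pairs (7.25%), 10 higher and 9 lower. The other opposite-strand pairs were not limited in this way. In 12 of the 23 only the sense gene was called on its own, in 7 only the antisense gene and in 4 both. Leaving out 1 library left 1 to 5 pairs higher and 2 to 5 lower, the fewest (1 higher, 2 lower) without control replicate 3, and 3 ratio calls were kept whichever library was left out. These were FBXL19-AS1, MAFG-AS1 and NCBP2-AS2. By geometry the ratio was called in 6 of 35 pairs that lie apart head to head (17.1%), in 14 of 169 with common exonic bases (8.28%) and in 3 of 86 that overlap without any (3.49%), and the difference between these shares was not tested.

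FBXL19-AS1 and FBXL19 moved in opposite directions. FBXL19 encodes an F-box protein with a CXXC domain that binds unmethylated CpG-rich DNA, and FBXL19-AS1 runs from the same start region along the - strand, at chr16:30919319-30923269. FBXL19-AS1 had 5.02, 5.70 and 6.27 RPKM in arsenic trioxide libraries, against 3.40, 2.65 and 2.28 RPKM in control libraries. FBXL19 had 12.8, 12.1 and 10.3 RPKM in arsenic trioxide libraries, against 16.2, 21.5 and 19.4 RPKM in control libraries. The groups did not overlap for either gene, and the antisense level was 39.2%, 47.2% and 60.5% of the sense level in arsenic trioxide libraries, against 21.0%, 12.3% and 11.8% in control libraries. FBXL19-AS1 rose by 0.82 ± 0.15 on the log2 scale (SE, adjusted p = 0.00843), FBXL19 fell by 0.65 (SE 0.12, adjusted p = 0.00997), and the ratio changed by 1.47 ± 0.23 (adjusted p = 0.012). All 3 calls were made in each of the 15 alternative settings run on named genes, with the adjusted p of the ratio between 2.69e-06 and 0.0464. Common exonic bases make up 2.48% of the FBXL19-AS1 exon length.

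MAFG encodes a small MAF protein that pairs with NRF2 on DNA, and MAFG-AS1 leaves the same promoter in the other direction without a common base. MAFG-AS1 had 1.40, 0.797 and 0.936 RPKM in arsenic trioxide libraries, against 1.54, 1.31 and 0.957 RPKM in control libraries. MAFG had 33.6, 25.5 and 34.9 RPKM in arsenic trioxide libraries, against 18.0, 13.1 and 12.7 RPKM in control libraries. The groups overlapped for MAFG-AS1 and lay apart for MAFG, so the antisense level was 4.15%, 3.12% and 2.69% of the sense level in arsenic trioxide libraries, against 8.55%, 9.99% and 7.51% in control libraries. MAFG rose by 1.05 ± 0.16 on the log2 scale (SE, adjusted p = 0.0052), MAFG-AS1 changed by -0.15 ± 0.17 (adjusted p = 0.551) and the ratio by -1.21 ± 0.17 (adjusted p = 0.00876). Without control replicate 1 and arsenic trioxide replicate 3 together, the adjusted p of the ratio was 0.0679. MAFG-AS1 rested on 32 to 59 reads in arsenic trioxide libraries and 41 to 59 in control libraries.

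In SLC7A11 the ratio call depended on the scale. The ratio change was -0.78 ± 0.15 (SE, adjusted p = 0.0248) with a pseudocount of 1, and the adjusted p was 0.634 with a pseudocount of 0.1 and 0.861 with limma-voom on recovered reads. On the deposited RPKM, SLC7A11-AS1 stood at 13.3%, 14.5% and 15.9% of SLC7A11 in arsenic trioxide libraries, against 16.7%, 13.2% and 15.8% in control libraries, and these groups overlapped. The call was also lost without any 1 library other than arsenic trioxide replicate 3, with adjusted p of 0.0585 to 0.0908. VLDLR showed the reverse pattern. VLDLR-AS1 stood at 29.4%, 32.7% and 28.8% of VLDLR in arsenic trioxide libraries, against 7.52%, 2.73% and 3.76% in control libraries, without overlap. Its ratio change was -0.18 ± 0.15 (adjusted p = 0.543) with a pseudocount of 1, 1.57 (adjusted p = 0.0446) with a pseudocount of 0.1 and 2.71 (adjusted p = 8.55e-05) with limma-voom on recovered reads. With a pseudocount of 5 the VLDLR-AS1 ratio was called lower, at -0.47 (adjusted p = 0.0084), so the sign of the call depended on the scale.

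In 4 further named pairs the ratio was higher, with the sense gene lower and the antisense gene not called. ST3GAL4 encodes a sialyltransferase, and ST3GAL4-AS1 starts 53 bases from it. ST3GAL4-AS1 had 2.34, 3.33 and 2.92 RPKM in arsenic trioxide libraries, against 3.08, 4.34 and 2.61 RPKM in control libraries. ST3GAL4 had 10.4, 8.91 and 7.91 RPKM in arsenic trioxide libraries, against 23.3, 22.0 and 23.0 RPKM in control libraries. The antisense levels overlapped and the sense levels lay apart. ST3GAL4 fell by 1.25 on the log2 scale (SE 0.10, adjusted p = 0.000638), ST3GAL4-AS1 changed by -0.16 ± 0.18 (adjusted p = 0.56) and the ratio by 1.09 ± 0.23 (adjusted p = 0.0323). The ratio call of ST3GAL4-AS1 was lost without arsenic trioxide replicate 2 or 3 or control replicate 1 or 3 (adjusted p = 0.0853 to 0.0993).

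LRRC75A encodes a leucine-rich repeat protein, and LRRC75A-AS1, the host transcript of several small nucleolar RNAs, was the most abundant antisense gene of all pairs per length. LRRC75A-AS1 had 52.1, 56.6 and 62.3 RPKM in arsenic trioxide libraries, against 63.1, 55.7 and 49.9 RPKM in control libraries. LRRC75A had 5.45, 8.21 and 7.23 RPKM in arsenic trioxide libraries, against 12.6, 15.9 and 11.5 RPKM in control libraries. The antisense groups overlapped, with a change of 0.02 ± 0.10 on the log2 scale (SE, adjusted p = 0.893), while LRRC75A was lower in every arsenic trioxide library (-0.85 ± 0.16, adjusted p = 0.0115). The ratio changed by 0.87 ± 0.16 (adjusted p = 0.0215). The LRRC75A-AS1 ratio call was lost without arsenic trioxide replicate 1 or 3 or control replicate 2 or 3 (adjusted p = 0.0597 to 0.0729), and the call of LRRC75A without control replicate 1 and arsenic trioxide replicate 3 together (adjusted p = 0.0634).

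RBM26 encodes an RNA-binding protein of nuclear RNA decay, and SEMA3F a secreted semaphorin, a guidance cue for axons and vessels. RBM26-AS1 had 3.51, 3.64 and 3.18 RPKM in arsenic trioxide libraries, against 1.85, 2.81 and 2.22 RPKM in control libraries. SEMA3F-AS1 had 3.54, 2.70 and 2.53 RPKM in arsenic trioxide libraries, against 1.48, 2.45 and 2.59 RPKM in control libraries. The groups lay apart for RBM26-AS1 and overlapped for SEMA3F-AS1, and neither was called (log2 change 0.44 ± 0.14, adjusted p = 0.0634, and 0.32 ± 0.19, adjusted p = 0.257). RBM26-AS1 was called higher with limma-voom on recovered reads (adjusted p = 0.016). It was also called with a filter of 1 CPM in at least 3 libraries (0.0439) and without control replicate 2 (0.0481). RBM26 fell by 0.40 on the log2 scale (SE 0.06, adjusted p = 0.00412) and SEMA3F by 0.65 (SE 0.13, adjusted p = 0.012). The RBM26-AS1 ratio changed by 0.84 ± 0.18 (SE, adjusted p = 0.033) and was lost without any 1 library but control replicate 2 (adjusted p = 0.0597 to 0.103). The SEMA3F-AS1 ratio changed by 0.97 ± 0.24 (SE, adjusted p = 0.047) and was lost without any 1 of the 6 libraries (adjusted p = 0.0657 to 0.129). Without control replicate 1 and arsenic trioxide replicate 3 together the adjusted p of SEMA3F was 0.0542. The SPG20-AS1 ratio, which follows from the antisense rise given above, changed by 1.02 ± 0.25 (SE, adjusted p = 0.0475) and was also lost without any 1 of the 6 libraries (adjusted p = 0.0538 to 0.13).

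In 2 further named pairs the ratio was lower, with the sense gene higher and the antisense gene not called. PXN encodes paxillin, an adaptor of focal adhesions, and LMO7 a LIM domain protein of cell junctions. PXN-AS1 had 1.79, 1.59 and 1.51 RPKM in arsenic trioxide libraries, against 1.52, 1.87 and 1.71 RPKM in control libraries. PXN had 2.15, 2.06 and 2.12 RPKM in arsenic trioxide libraries, against 0.823, 0.824 and 0.800 RPKM in control libraries. PXN passed the threshold only through the arsenic trioxide group, so its values and the ratio of this pair are a description. PXN-AS1 overlapped between groups and PXN lay apart, although 38.6% of the PXN-AS1 exon length lies in exons of PXN. PXN rose by 0.78 ± 0.12 on the log2 scale (SE, adjusted p = 0.00495), PXN-AS1 changed by -0.04 ± 0.13 (adjusted p = 0.856) and the ratio by -0.81 ± 0.15 (adjusted p = 0.0211). The PXN-AS1 ratio call was lost without any 1 library but control replicate 1 (adjusted p = 0.0597 to 0.0682).

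LMO7-AS1 passed the threshold only through the control group, so its values and the ratio of this pair are a description. LMO7-AS1 had 0.907, 1.27 and 0.537 RPKM in arsenic trioxide libraries, against 2.42, 1.57 and 1.49 RPKM in control libraries. LMO7 had 3.07, 2.92 and 3.16 RPKM in arsenic trioxide libraries, against 1.78, 1.86 and 1.72 RPKM in control libraries. The groups lay apart for both genes, in opposite directions, and LMO7-AS1 rested on 7 to 16 reads in arsenic trioxide libraries and 18 to 29 in control libraries. LMO7 rose by 0.54 ± 0.11 on the log2 scale (SE, adjusted p = 0.0146), LMO7-AS1 changed by -0.57 ± 0.20 (adjusted p = 0.0808) and the ratio by -1.11 ± 0.22 (adjusted p = 0.0256). The call of LMO7 was lost without arsenic trioxide replicate 1 (adjusted p = 0.0502) or control replicate 3 (0.0521), and the LMO7-AS1 ratio call without any 1 library but arsenic trioxide replicate 2 (adjusted p = 0.0577 to 0.0808).

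GLTSCR2 encodes NOP53, a nucleolar protein of ribosome assembly, and here the antisense gene was lower without its sense gene. GLTSCR2-AS1 had 1.49, 2.97 and 2.02 RPKM in arsenic trioxide libraries, against 3.76, 4.40 and 4.10 RPKM in control libraries. GLTSCR2 had 48.0, 48.0 and 56.8 RPKM in arsenic trioxide libraries, against 45.6, 39.6 and 42.8 RPKM in control libraries. The groups did not overlap for either gene, and GLTSCR2-AS1 rested on 18 to 34 reads in arsenic trioxide libraries and 41 to 50 in control libraries. GLTSCR2-AS1 changed by -0.71 ± 0.18 on the log2 scale (SE, adjusted p = 0.031), GLTSCR2 by 0.25 ± 0.09 (adjusted p = 0.0761) and the ratio by -0.96 ± 0.22 (adjusted p = 0.038). Leaving out any 1 library but arsenic trioxide replicate 2 ended both calls of GLTSCR2-AS1, with adjusted p of 0.0614 to 0.0904 for its level and 0.0746 to 0.114 for its ratio.

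**Figure D4:**
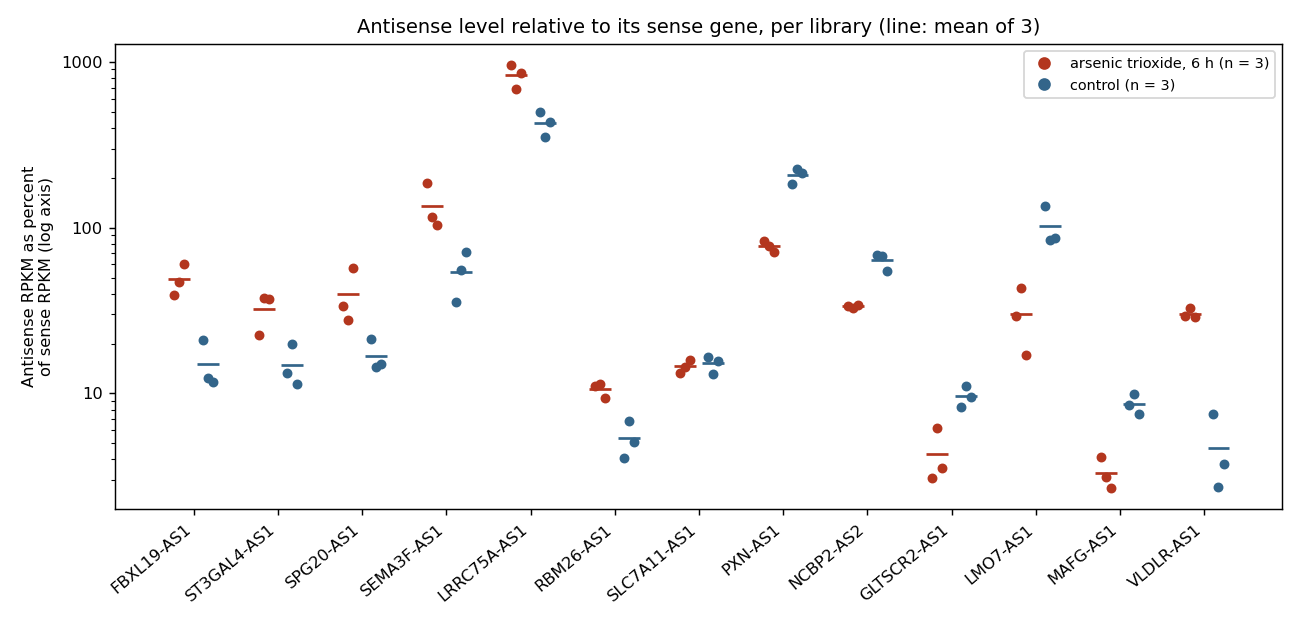
Antisense RPKM as percent of sense RPKM (log axis) in each library, for the 12 named pairs whose ratio was called and for VLDLR-AS1, arsenic trioxide in red and left of control in blue, with the mean of 3 libraries as a line. FBXL19-AS1 lies at 39.2% to 60.5% after arsenic trioxide and 11.8% to 21.0% in control, MAFG-AS1 at 2.69% to 4.15% and 7.51% to 9.99%, and SLC7A11-AS1 overlaps between groups.

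Sense genes with more than 1 antisense partner allowed antisense genes of 1 locus to be set side by side. This set was singled out after the values were seen. NCBP2 encodes the cap-binding protein CBP20. NCBP2-AS2, which starts 26 bases from it and is annotated as protein coding, had 6.64, 7.30 and 6.79 RPKM in arsenic trioxide libraries, against 16.3, 16.3 and 13.2 RPKM in control libraries. NCBP2-AS1, which lies within the gene, had 3.67, 3.86 and 3.48 RPKM in arsenic trioxide libraries, against 4.14, 4.50 and 3.23 RPKM in control libraries. NCBP2 had 19.8, 22.2 and 19.9 RPKM in arsenic trioxide libraries, against 23.9, 24.1 and 24.0 RPKM in control libraries. The groups lay apart for NCBP2-AS2 and NCBP2 and overlapped for NCBP2-AS1. The log2 change was -1.03 ± 0.10 (SE, adjusted p = 0.00117) for NCBP2-AS2, -0.08 ± 0.13 (adjusted p = 0.703) for NCBP2-AS1 and -0.21 ± 0.06 (adjusted p = 0.0487) for NCBP2. NCBP2-AS2 stood at 33.6%, 32.9% and 34.2% of NCBP2 in arsenic trioxide libraries, against 68.0%, 67.6% and 54.7% in control libraries, a ratio change of -0.82 ± 0.11 (adjusted p = 0.00826). Without control replicate 1 and arsenic trioxide replicate 3 together the adjusted p of the NCBP2-AS2 ratio was 0.0717, and the call of NCBP2 was lost without any 1 library but arsenic trioxide replicate 2 (adjusted p = 0.0997 to 0.133) and with median-ratio or upper quartile scaling (0.0629 and 0.0958). The difference between NCBP2-AS1 and NCBP2-AS2 was not tested.

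PAXIP1 encodes PTIP, a protein of the DNA damage response and of a histone H3 lysine methyltransferase complex. PAXIP1-AS1, which starts 364 bases from it head to head, had 2.05, 2.18 and 2.18 RPKM in arsenic trioxide libraries, against 5.31, 7.10 and 5.72 RPKM in control libraries. PAXIP1-AS2, which overlaps the 3' part of the gene, had 4.43, 4.70 and 3.50 RPKM in arsenic trioxide libraries, against 3.41, 3.73 and 4.001 RPKM in control libraries. PAXIP1 had 7.33, 6.82 and 6.62 RPKM in arsenic trioxide libraries, against 10.6, 11.98 and 12.04 RPKM in control libraries. PAXIP1-AS1 and PAXIP1 were lower in every arsenic trioxide library, while the groups overlapped for PAXIP1-AS2. The log2 change was -1.16 ± 0.13 (SE, adjusted p = 0.00175) for PAXIP1-AS1, 0.14 ± 0.13 (adjusted p = 0.468) for PAXIP1-AS2 and -0.66 ± 0.09 (adjusted p = 0.00296) for PAXIP1. The ratio to PAXIP1 changed by -0.50 ± 0.14 (adjusted p = 0.0713) for PAXIP1-AS1 and by 0.80 ± 0.14 (adjusted p = 0.0174) for PAXIP1-AS2. The ratio call of PAXIP1-AS2 was lost without arsenic trioxide replicate 1 or 2 or control replicate 2 or 3 (adjusted p = 0.0543 to 0.062).

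Of the other 9 sense genes with several partners, both antisense genes were called higher for IGBP1, by 0.47 ± 0.13 for IGBP1-AS1 and 0.59 ± 0.14 for IGBP1-AS2 on the log2 scale (adjusted p = 0.0397 and 0.0209), and both calls were lost without any 1 library but arsenic trioxide replicate 3 (0.0682 to 0.117 for IGBP1-AS1 and 0.0529 to 0.069 for IGBP1-AS2). For 3 genes 1 of the antisense genes was called. DIAPH3-AS1 rose by 0.54 ± 0.12 (SE, adjusted p = 0.0186, and 0.0539 or 0.0519 without arsenic trioxide replicate 2 or 3), with DIAPH3-AS2 at 0.50 ± 0.20 (adjusted p = 0.111). XXYLT1-AS2 changed by -0.61 ± 0.14 (SE, adjusted p = 0.019, and 0.0588 to 0.0648 without arsenic trioxide replicate 2 or control replicate 2 or 3), with XXYLT1-AS1 at -0.45 ± 0.22 (adjusted p = 0.177). The symbol DNAJC9-AS1 stands on 2 gene identifiers, of which 1 was called at 0.52 ± 0.15 (adjusted p = 0.0485) and lost without any 1 library (adjusted p = 0.057 to 0.129). For DPYD, LCMT1, PIK3CD, PTOV1 and ZNF503 none was called.

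Of the antisense genes named whatever their result, 5 are not described so far. OIP5-AS1, known as Cyrano, a conserved noncoding RNA that directs the decay of a microRNA, had 23.0, 29.6 and 25.0 RPKM in arsenic trioxide libraries, against 36.7, 42.4 and 34.9 RPKM in control libraries. OIP5, which encodes a centromere assembly factor, had 12.5, 11.3 and 10.4 RPKM in arsenic trioxide libraries, against 15.8, 14.5 and 14.3 RPKM in control libraries. Both lay below all controls in every arsenic trioxide library. OIP5-AS1 changed by -0.54 ± 0.11 on the log2 scale (SE, adjusted p = 0.0137) and OIP5 by -0.36 ± 0.09 (adjusted p = 0.0243). Without control replicate 1 and arsenic trioxide replicate 3 together the adjusted p of OIP5-AS1 was 0.0789, and the call of OIP5 was lost without any 1 library but arsenic trioxide replicate 1 (adjusted p = 0.0558 to 0.0717).

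The remaining 4 were not called. EIF3J-AS1, beside the gene of a translation initiation factor subunit, had 2.73, 3.08 and 3.81 RPKM in arsenic trioxide libraries, against 2.81, 3.88 and 3.13 RPKM in control libraries. KMT2E-AS1, beside the gene of the chromatin protein MLL5, had 3.78, 5.39 and 3.59 RPKM in arsenic trioxide libraries, against 3.77, 4.42 and 4.39 RPKM in control libraries. Both overlapped fully, with log2 changes of -0.02 ± 0.15 (SE, adjusted p = 0.926) and 0.00 ± 0.15 (adjusted p = 0.992). NIFK-AS1, partner of a nucleolar protein gene, had 2.88, 2.98 and 2.73 RPKM in arsenic trioxide libraries, against 2.52, 4.19 and 2.62 RPKM in control libraries (log2 change -0.07 ± 0.17, adjusted p = 0.806). NIFK was lower (-0.47 ± 0.11, adjusted p = 0.0248), a call lost without arsenic trioxide replicate 2 (adjusted p = 0.0655), arsenic trioxide replicate 3 (0.0693) or control replicate 3 (0.0624). MCM3AP-AS1, partner of an mRNA export factor gene, had 3.73, 3.81 and 3.997 RPKM in arsenic trioxide libraries, against 4.45, 5.54 and 4.72 RPKM in control libraries. The groups lay apart, but the change of -0.28 ± 0.11 was not called (adjusted p = 0.108), whereas limma-voom on recovered reads called MCM3AP-AS1 (adjusted p = 0.0342). Of the names reported whatever their result, 7 are pairs described here and the other 6 are not among the pairs.

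In the authors' deposited table, 79 of the 296 antisense genes had an adjusted p under 0.05, and 51 of these were also called here, none with another sign. The share of all listed genes under this limit there was not computed, so the count of 79 cannot be set against it.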

How the data were processed

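Libraries were made from rRNA-depleted total RNA of NB4 cells, per the labels' protocols, with an unstranded kit. Without parameters, the notes on processing by the submitters list the build hg38, HISAT2 2.1.0, HTSeq and DESeq2. The authors deposited RPKM of 23858 genes in 6 libraries, with duplicate reads removed per the file headers, and their own comparison of the groups: a mean normalized signal, log2 fold changes and their standard errors, a test score and p-values. Of that comparison, the mean served to settle exon lengths and the fold changes and p-values are only quoted as the authors' values.

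Pairs were found by symbol and placed with GENCODE 29, counted from 1, by span, exon overlap and 5' ends. RPKM was turned back into whole reads with exon lengths and a total for each library, which was inferred from the same RPKM. Within 0.01 reads, the 6 values were all whole for 93.0% of genes from the annotated length alone and for 100.0% after the deposited mean. No listed gene had under 21 reads in all, and weaker genes were not analysed here. The test for normalized values was limma 3.58.1 (R 4.3.3) in trend mode on log2(RPKM + 1), with treatment as the only term, for 16803 genes averaging 1 RPKM or more, with Benjamini-Hochberg adjustment over all of them. The ratio of a pair was fitted the same way over 5717 pairs, with the variance trend on the weaker gene. Both procedures were tested on simulated data. Fold changes on this scale understate changes of low genes.

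The genes named are a set reported whatever the result, the 8 largest antisense rises and 8 largest falls among called genes whose groups do not overlap, the 6 largest and 6 smallest ratio changes among called pairs, and the pairs next to the threshold. Members, lists and names were chosen with earlier results of these data known. Alternatives were other filters, pseudocounts, scalings, limma-voom on recovered reads, a replicate block, other thresholds for members and leaving out libraries.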

Additional observations from a re-analysis of the deposited data

How the results depend on the processing

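The antisense counts of 33 higher and 32 lower stayed within 1.5 times under the other filters, pseudocounts, scalings, limma-voom and the block. A threshold of 2 RPKM left 190 pairs, with 21 antisense genes called higher and 28 lower. Leaving out 1 library left 21 to 28 higher and 20 to 27 lower. Sense calls (59 higher, 48 lower) came to 38 to 47 higher and 27 to 38 lower without 1 library. The ratio calls (10 higher, 13 lower) moved most, to 18 and 22 with a filter of 1 CPM in at least 3 libraries, 19 and 23 with a pseudocount of 5, and 21 and 28 with limma-voom on recovered reads. They came to 1 to 5 higher and 2 to 5 lower without 1 library. At a threshold of 2 RPKM they came to 10 higher and 8 lower of 190 pairs. A fit on only the pairs with no recorded common exonic base called 2 higher and 2 lower. That fit holds 127 of the 296, including the 3 pairs on 1 strand and the 2 not in the annotation. Among these 127 pairs the main fit called 1 ratio higher and 5 lower in those head to head. It called 2 higher and 1 lower in those that overlap without a common exonic base, and 0 in the rest. The cause of these shifts was not tested, beyond fewer samples or pairs in the fit. In a setting chosen after the data were seen, without control replicate 1 and arsenic trioxide replicate 3 together, 21 antisense genes were called higher and 20 lower, 25 sense genes lower, and 1 ratio higher and 0 lower.

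With a replicate block, 36 sense genes were called higher, and 2 ratios higher and 3 lower. Over all tested genes, deviations from the group mean correlated at -0.085, 0.148 and -0.083 between samples with the same number. The labels do not say whether the numbers pair the samples, and these correlations cannot exclude a weak pairing.

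Of 56 called values of named genes and ratios, 34 were called in each of the 15 settings. The direction of a ratio that was called under the alternative, but not on log2(RPKM + 1), turned in 3 comparisons: VLDLR-AS1 at 1.57 with a pseudocount of 0.1 and 2.71 with limma-voom, and ZEB2-AS1 at -0.89 with limma-voom (adjusted p = 0.0477), against 0.01 on log2(RPKM + 1). With a pseudocount of 5 the ratio was called at -0.47 for VLDLR-AS1 and at 0.48 for ZEB2-AS1 (adjusted p = 0.0084 and 0.0315). In depth, 19 antisense genes averaged under 20 reads per library.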

Other observations

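Other listed names of noncoding RNAs tied to a host gene are given here beside the share of all tested genes called higher (12.0%) or lower (13.4%). Of 292 antisense names outside the pairs, 29 reached a mean of 1 RPKM, of which 0 were called higher and 4 lower, with log2 changes of -1.33 for ELFN1-AS1, -1.02 for ZNF674-AS1, -0.96 for RPARP-AS1 and -0.52 for LARGE-AS1. ELFN1-AS1 had 2.36, 3.29 and 3.36 RPKM in arsenic trioxide libraries, against 10.2, 9.82 and 7.29 RPKM in control libraries (limma adjusted p = 0.00243), and the groups lay far apart. Of 71 intronic transcript names (-IT1), 53 were tested, 3 were called higher and 5 lower, the largest rise being DISC1-IT1 at 0.57 and the largest fall ZNRF3-IT1 at -0.70. Of 3 overlapping transcript names (-OT1), 2 were tested and PCBP3-OT1 was called higher, at 0.77. These genes were named after their values were seen.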
